A study of Mus musculus with 6 samples.

Results

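Myelinating Schwann cells of the lower abdominal muscle (LAM) were described across 3 WT and 3 Aromhum mice. The deposited table of single-cell RNA-Seq counts holds its barcodes in 180 contiguous runs of 1 sample each, which pass through the 6 mice 30 times. The barcodes of the 7th pass, here called column group 7, were taken as members when they held at least 500 unique molecular identifiers (UMIs, each 1 captured transcript molecule). Of its 1330 barcodes 1329 were kept, among 63647 barcodes in all. They came as 211, 331 and 359 from the WT mice and as 145, 126 and 157 from the Aromhum mice, in the order of replicates 1 to 3, which holds for all values given per mouse. No label explains the order of the columns, so the cell type rests on the marker genes below.

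All mice were FVB/N males of 9 to 10 weeks. Aromhum mice carry the human aromatase gene *CYP19A1* with its own promoters, which gives a human pattern of expression and is not limited to 1 cell type, and their samples are labelled with scrotal hernia. WT littermates are labelled as controls. The muscle was digested with collagenase and dispase and passed through a 40 μm filter, and the Schwann cells described are those that came through it.

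Schwann cells are the glia of peripheral nerves. Myelinating Schwann cells wrap 1 segment of a large axon in a compacted, lipid-rich membrane, which lets the nerve impulse jump between nodes, while non-myelinating (Remak) Schwann cells hold bundles of small axons without myelin. Their identity depends on *Sox10* and on *Egr2*, which drives the genes of myelin proteins and lipids, and both cell types can turn into repair cells after nerve injury.

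The members held between 319000 and 1105289 UMIs per mouse, with a median per barcode of 2281, 2608 and 2873 in WT and 1753, 1617 and 2534 in Aromhum mice. Mitochondrial genes made up a median of 9.40%, 12.9% and 9.29% of UMIs in WT and 8.64%, 8.36% and 7.70% in Aromhum members. The study kept cells with 200 to 2500 genes, from 1000 UMIs upward, whose mitochondrial share did not exceed 5%. The study also removed outliers by median absolute deviation, a step not applied here. Only 101 members met all 3 limits, and only 144 (10.8%) met the mitochondrial limit alone, which 61.1% of all barcodes met. Results are therefore given for all members, with the limits as an alternative. In 22 members (1.66%) the barcode sequence was also seen in another mouse, never in column group 7 there. In WT replicate 1, 1 member held 9526 haemoglobin UMIs among its 16619. *CYP19A1* had no UMI in any WT barcode, so the genotypes matched their labels.

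The marker genes bore out the label. UMIs of at least 2 of *Mbp*, *Mal* and *Ncmap* were found in 1272 members (95.7%), and only 4 members held none. Levels are given as CPM of the summed UMIs of a mouse's members, and are compared within a gene. *Mbp*, which holds the inner faces of the compacted membrane together, stood at 3708 ± 532 CPM (SD, n = 6 mice), compared with 286 ± 53.5 CPM in column group 4, the non-myelinating glia of the same table. *Ncmap*, a membrane protein of non-compact myelin, stood at 907 ± 115 CPM against 25.8 ± 15.7 CPM. Of 16 listed genes of non-myelinating Schwann cells, 14 showed the opposite order, among them *Ncam1* at 14.8 ± 4.36 CPM in members and 387 ± 73.3 CPM in column group 4, and the adhesion molecule *L1cam* at 1.95 ± 1.498 and 174 ± 30.7 CPM. The other 2 were higher in members, with the potassium channel *Kcna1* at 820 against 458 CPM and the sorting receptor *Sorcs1* at 98.8 against 32.3 CPM. Column group 7 may have been formed from these genes, so such levels are a description without a test.

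**Figure D1:**
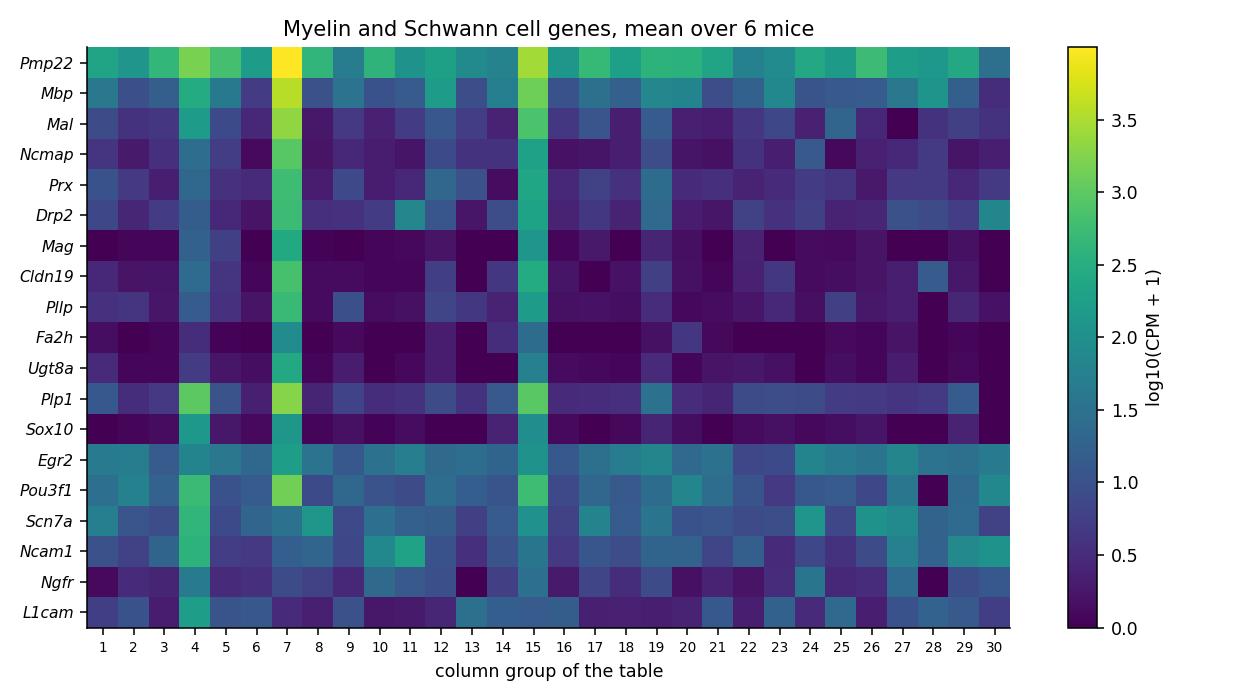
Mean level over 6 mice of 19 Schwann cell genes (rows) in the 30 column groups of the table (columns), as log10(CPM + 1). Column group 7 is the brightest for the myelin genes, column group 15 follows it, and column group 4 is the brightest for *Scn7a*, *Ncam1*, *Ngfr* and *L1cam*.

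All 7 listed compact myelin genes in the table had their highest level of all 30 column groups in column group 7, and so did 18 of 23 genes of non-compact myelin and the node. In the order of the mice, *Mal*, a proteolipid of the compact membrane, stood at 2346, 1927 and 2289 CPM in WT and 2095, 1972 and 2311 CPM in Aromhum members. *Pmp22*, the tetraspan myelin protein whose dosage causes hereditary neuropathy, stood at 9467, 9018 and 10355 CPM in WT and 9390, 10398 and 11053 CPM in Aromhum members. The ranges of both genes overlapped between genotypes. In the reference assembly GRCm38 (GENCODE vM21), *Pmp22* lies at chr11:63128982-63159547, *Mal* at chr2:127633226-127656695 and *Ncmap* at chr4:135369576-135398227.

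Among 2875 genes of at least 50 CPM in members, 370 were highest in column group 7, and for 184 of these the next highest was column group 15. By the ratio to the next column group, *Vat1l* led with 71.4 ± 23.1 CPM, 10.6 times the next. *Cfap100* followed with 64.5 ± 10.5 CPM. The 20 leading genes included *Ncmap*, *Ugt8a*, *Pmp22*, *Fa2h*, *Pllp* and *Mal* of the myelin lists, and *Mfsd2a*, a transporter of lysophosphatidylcholine. *Ugt8a* makes galactosylceramide, the main glycolipid of myelin, and stood at 253 ± 32.8 CPM against 4.06 CPM in column group 4. *Fa2h*, which hydroxylates the fatty acids of those lipids, stood at 85.2 ± 20.3 CPM against 2.31 CPM. *Spp1*, the secreted phosphoprotein osteopontin, stood at 1675 ± 385 CPM against 18.6 CPM.

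Column group 15 was small, with 282 barcodes, and held *Mbp* at 1313 CPM together with *Itgb4* at 283 CPM, against 76.0 CPM in members. *Itgb4* is the laminin-receptor subunit of Schwann cells and perineurial cells. *Gas6* there stood at 330 CPM against 60.6 CPM in members. Those barcodes were not counted as members.

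The lipid genes of the myelin membrane were high in the members. Of 25 cholesterol synthesis genes in the table, 21 were higher in members than in column group 4, and 14 were highest there of all 30 column groups. Their summed level was between 1417 and 2088 CPM in the 6 mice, against 488 to 604 CPM in column group 4, with no overlap. *Hmgcs1*, which makes the precursor HMG-CoA, stood at 305 CPM against 47.6, and *Scd2*, a fatty acid desaturase, at 632 CPM against 126. Of 18 genes of inherited demyelinating neuropathies in the table, 10 were highest in column group 7, among them *Prx*, *Gjb1*, *Ndrg1*, *Sh3tc2*, *Mtmr2* and *Fgd4*.

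Of 26 listed regulators of transcription in the table, 8 had a higher level in members than in column group 4. *Egr2* stood at 164 ± 25.3 CPM in members and 62.1 ± 6.25 CPM in column group 4. *Pou3f1*, a POU factor that acts before *Egr2*, stood at 1407 CPM against 525. *Sox10*, the factor of all Schwann cells, stood at 130 CPM against 134, close to equal, and *Etv5*, an ETS factor, at 4.40 CPM against 29.1. Among signals, *Dhh*, the hedgehog ligand by which Schwann cells organise the perineurium, stood at 187 ± 20.7 CPM against 48.6 ± 16.9 CPM. The receptor *Erbb3* of axonal neuregulin stood lower in members, at 49.3 CPM against 162, and so did *Ngfr*, the low-affinity neurotrophin receptor, at 7.21 ± 4.39 CPM against 41.1 ± 17.05.

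To compare shares of cells with a UMI at equal depth, members of at least 1000 UMIs were thinned to 1000. *Mbp* then had a UMI in 95.2% ± 1.33 of WT and 94.0% ± 1.27 of Aromhum members (SD, n = 3 mice), and before thinning in 99.8% and 99.2%. *Ncmap* had one in 55.3% ± 0.462 and 52.3% ± 8.23 (76.2% and 66.9% before thinning). In endothelial cells of column group 2, which lack myelin, the thinned share with *Mbp* was 1.67% in WT and 1.17% in Aromhum mice (6.08% and 2.75% before thinning). The 2 myelin lists took a median of 5.59%, 5.28% and 5.87% of a member's UMIs in WT and 5.52%, 6.25% and 6.22% in Aromhum mice.

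Members were a smaller share of the barcodes in Aromhum mice. They made up 2.08%, 3.06% and 4.54% of barcodes in WT and 1.21%, 0.915% and 1.75% in Aromhum mice, which is 3.23% ± 1.24 against 1.29% ± 0.423 (SD, n = 3 mice). The groups did not overlap, and the 2-sided exact permutation test gave p = 0.1, the lowest it allows. Within the mitochondrial limit of 5%, the shares were 0.427% ± 0.248 and 0.337% ± 0.176 and overlapped (exact permutation p = 0.8). Within the study's limits on genes, UMIs and mitochondrial share together they were 0.589% ± 0.377 and 0.566% ± 0.439 (exact permutation p = 1). Few members were left for these shares. The mitochondrial limit kept 33, 5 and 29 members in WT and 22, 20 and 35 in Aromhum mice. The limits together kept 24, 3 and 23 in WT and 15, 12 and 24 in Aromhum mice. A share also falls when other cells become more numerous, and this cannot be told apart from a loss of Schwann cells.

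Among the glia alone, the shares of the genotypes overlapped. Column group 7 made up 57.8%, 64.5% and 68.4% of both glial groups in WT and 56.0%, 44.5% and 60.6% in Aromhum mice. The means of 63.6% ± 5.35 and 53.7% ± 8.29 differed by 9.86 percentage points with overlapping ranges (2-sided exact permutation test, p = 0.2). Within the 5% mitochondrial limit Aromhum mice had the higher mean, at 38.1% ± 8.09 against 34.9% ± 5.67 (exact permutation p = 0.8).

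**Figure D2:**
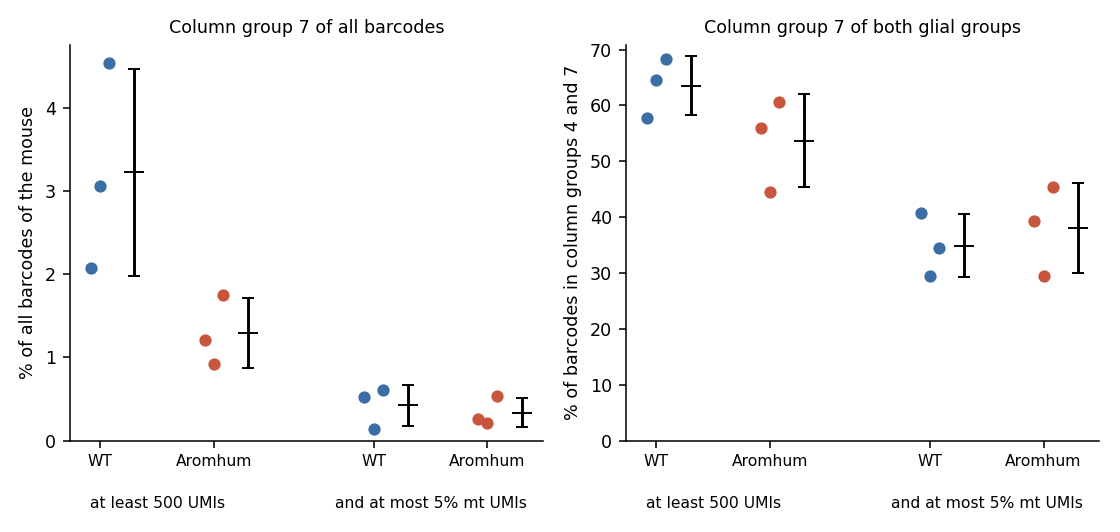
Share of column group 7 per mouse, in % of all barcodes (left) and of both glial groups (right), for all members and for those with at most 5% mitochondrial UMIs. Points are mice, and bars are the mean ± SD of 3 mice: the WT mice lie above the Aromhum mice only in the left panel without the mitochondrial limit.

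No myelin gene was called between genotypes. UMIs were summed per mouse and compared with edgeR's quasi-likelihood test, with p adjusted by Benjamini-Hochberg over 6162 genes. Across all genes, 112 (1.82%) were higher and 14 (0.227%) lower in Aromhum members at an adjusted p under 0.05, 126 (2.04%) in all. Of 28 genes tested from both myelin lists, none was called in either direction, 6 had a positive and 22 a negative log2 fold change. Their 95% intervals ran within a log2 change of 1 either way for 27 of the 28, with *Gal3st1* as the exception. The median log2 fold change was -0.20 over the 7 tested compact myelin genes and -0.17 over the 21 tested genes of non-compact myelin and the node, against -0.00 over all genes tested. *Mbp*, *Mal* and *Ncmap* summed to 6831, 6826 and 7868 CPM in WT and 6121, 6270 and 6715 CPM in Aromhum members. The non-compact myelin and node list summed to 7280, 7270 and 7605 CPM in WT and 7013, 6727 and 7025 CPM in Aromhum members. In both sums every Aromhum mouse lay under every WT mouse, while the compact myelin list, at 46881, 45448 and 52224 CPM in WT and 42935, 43859 and 50614 CPM in Aromhum members, overlapped. None of these sums was tested. *Mal* changed by a log2 of -0.08 (95% interval -0.36 to 0.21, edgeR adjusted p = 0.901), and *Pmp22* by 0.06 (-0.22 to 0.34, adjusted p = 0.926). *Mbp* stood at 3473, 3979 and 4615 CPM in WT and 3068, 3611 and 3504 CPM in Aromhum members, with a log2 change of -0.28 (-0.60 to 0.03, adjusted p = 0.462). *Prx*, which anchors the sheath to the basal lamina, stood at 545 ± 78.1 CPM in WT and 609 ± 91.0 CPM in Aromhum members.

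**Figure D3:**
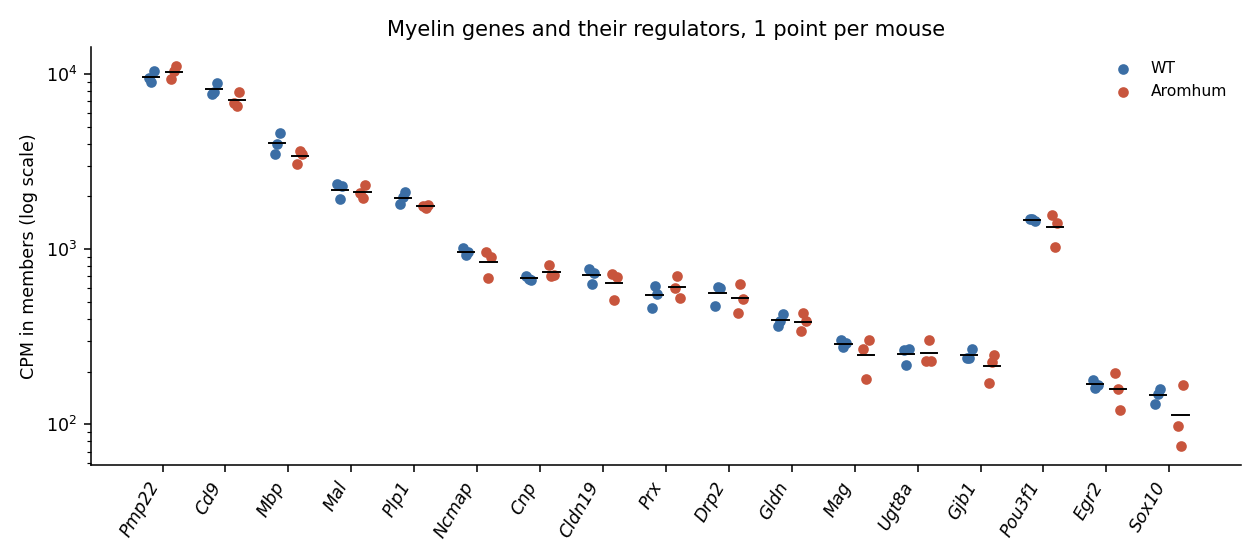
CPM of 17 myelin genes and regulators in the members of each mouse, on a log scale. Points are mice and bars the mean of 3 mice, and for most genes the points of the genotypes overlap.

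None of the 17 tested cholesterol synthesis genes, of the 21 tested fatty acid and sphingolipid genes, or of the 13 tested neuropathy genes was called. Their median log2 fold changes were -0.04, -0.03 and -0.15. Over all genes tested 2.04% were called, a share at which lists of this size hold few calls or none. Of 20 tested regulators of transcription, *Hes1* was called as lower and none as higher, against 0.227% and 1.82% of all genes tested. The median log2 fold change of the 20 was -0.16, with 7 positive and 13 negative, and the genotypes did not overlap in 9. In edgeR's fit *Egr2* and *Pou3f1* had log2 changes of -0.15 and -0.17 (adjusted p = 0.843 and 0.762). *Id4*, an inhibitor of helix-loop-helix factors, stood at 79.7, 93.5 and 79.6 CPM in WT and 60.4, 34.5 and 31.5 CPM in Aromhum members. The groups did not overlap, but its adjusted p in edgeR was 0.0632. Over all genes tested, the groups did not overlap in 17.7%, with Aromhum higher in 10.8% and lower in 6.88%.

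Of the 14 genes that were lower, *Fxyd3* was the glial gene with the highest level. *Fxyd3*, a regulator of the sodium pump, is a strong member marker here, at 1536 CPM against 82.1 CPM in column group 4. It stood at 1766, 2030 and 1861 CPM in WT and at 1096, 1176 and 1286 CPM in Aromhum members. All Aromhum mice lay under all WT mice. The log2 fold change was -0.71 ± 0.13 (SE, edgeR adjusted p = 0.0179), and over the alternatives its adjusted p ranged up to 0.999. *Fxyd3* lies at chr7:31068172-31076704 (GRCm38, minus strand).

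*Smco3* and *Tyrp1*, which is known as a melanin synthesis enzyme, were the lowest by fold change but are listed at 0 in every Aromhum barcode of the whole table. In WT members *Smco3* stood at 52.6, 37.0 and 51.6 CPM and *Tyrp1* at 39.8, 50.3 and 32.6 CPM. The table holds almost no gene seen in few barcodes of an Aromhum mouse. Among the genes with UMIs in an Aromhum mouse, the lowest percentile was seen in 21 to 26 of its barcodes, and 526 genes are at 0 in all Aromhum mice but not in all WT mice, against 758 the other way round. *Smco3* had UMIs in 11.5% and *Tyrp1* in 7.12% of WT members on average. At these shares, and with the WT ratio of other barcodes to members, 19.5 to 24.4 barcodes per Aromhum mouse would show *Smco3* and 15.4 to 19.2 *Tyrp1*. These numbers lie near that lowest percentile, so absence and removal from the table cannot be told apart, and no fold is given.

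Most higher genes had a higher level in fibroblasts than in members. Of the 112 higher genes, 109 had a higher mean level in the fibroblast column groups 8 or 10 than in members, as did 44.9% of all genes tested. Among the 2591 tested genes that were higher in members than in column groups 2, 8 and 10, 6 (0.232%) were called, against 2.04% of all genes tested. These 6 included *CYP19A1* and *Slpi* as higher and *Fxyd3*, *Smco3* and *Tyrp1* as lower. The fibroblast marker list was also higher in Aromhum members. It summed to 9011, 5674 and 4107 CPM in WT and 16046, 15003 and 13662 CPM in Aromhum members. Of its 8 genes 5 were called as higher, against 1.82% of all genes tested. Of all tested genes with a higher level in fibroblasts than in members, 4.01% were called in either direction. The part of the fibroblast list in the higher genes was not tested. Of the 109 genes, 107 (98.2%) were also higher in the Aromhum mean of endothelial column group 2, as were 72.6% of all tested genes with a higher level in fibroblasts than in members and 63.3% of all genes tested. In muscle fibre column group 22 they were 107 as well, against 77.9% and 72.2%, and in column group 4 they were 101 (92.7%), against 58.9% and 51.5%. These column groups come from the same 6 mice, so the counts are not independent of those in members.

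**Figure D4:**
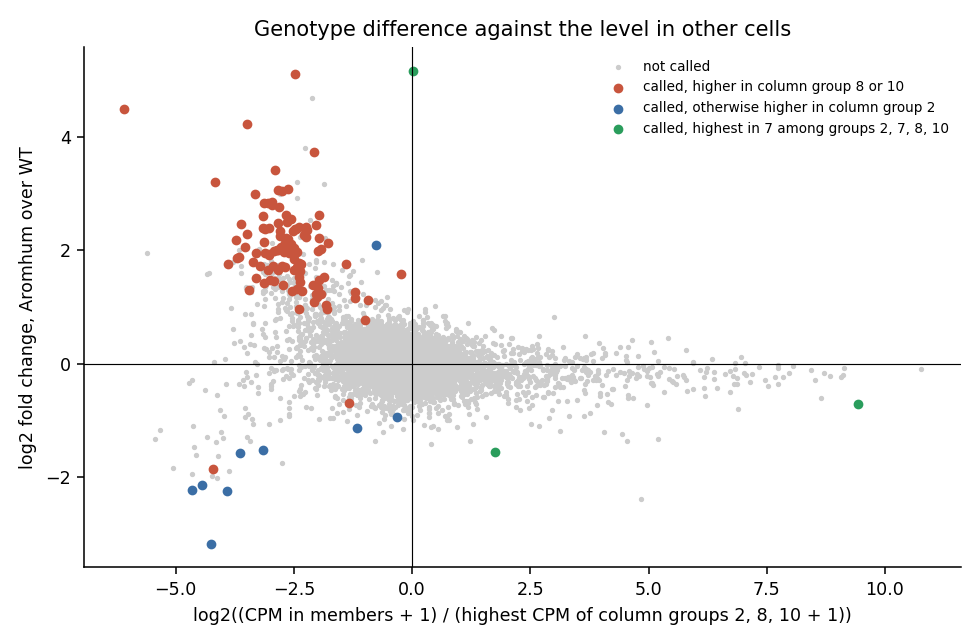
Log2 fold change between genotypes in members (y) against the ratio of their level to the highest level in endothelial column group 2 and fibroblast column groups 8 and 10 (x, log2). Each point is 1 of the tested genes without *CYP19A1*, *Smco3* and *Tyrp1*, and nearly all called genes lie left of 0, where the level is higher in those other cells.

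By fold change the higher genes were led, after *CYP19A1*, by *Slpi*, *Ptx3*, *Pnoc*, *Mmp19*, *C3*, *Pla1a*, *Ctla2a*, *Lbp*, *Ptgs2*, *Ccl7*, *Igfbp4*, *Fn1*, *Efemp1* and *Cd248*. *Ptx3*, a soluble pattern recognition protein, stood at 28.7, 5.14 and 6.33 CPM in WT and 475, 696 and 113 CPM in Aromhum members. Its log2 fold change was 5.12 ± 0.70 (SE, edgeR adjusted p = 0.00599). *C3*, the central complement component, stood at 97.2, 28.8 and 18.1 CPM in WT and 460, 1031 and 343 CPM in Aromhum members (log2 fold change 3.74 ± 0.55, edgeR adjusted p = 0.00772). Its level in column group 8 was 821 ± 345 and 1982 ± 914 CPM. *Pnoc*, the precursor of the peptide nociceptin, stood at 27.1, 2.06 and 12.7 CPM in WT and 63.3, 470 and 350 CPM in Aromhum members. In fibroblast column group 10 it stood at 8938 ± 2681 and 12195 ± 2976 CPM. *Slpi*, a protease inhibitor, was uneven, at 31.7, 602 and 122 CPM in Aromhum members, and the mesothelial marker list summed to 11.5, 147 and 76.0 CPM in the same mice against 9.05 to 17.5 CPM in WT.

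Several collagens were higher. *Col3a1* had the smallest p of all genes tested, at 590, 523 and 412 CPM in WT and 2648, 2072 and 1775 CPM in Aromhum members (log2 fold change 2.06 ± 0.19, edgeR adjusted p = 0.00171). In endothelial column group 2 *Col3a1* stood at 122 ± 28.8 and 763 ± 329 CPM. *Dcn*, a proteoglycan of fibroblasts, stood at 2247 ± 1386 and 5036 ± 969 CPM in members and was not called (edgeR adjusted p = 0.138). In column group 8 *Col3a1* stood at 5280 ± 1136 CPM in WT and 12993 ± 3241 CPM in Aromhum mice, and *Col1a1* at 2955 ± 445 and 7365 ± 2738 CPM, the same order as in members. *Dcn* had the opposite order there, with means of 27010 ± 3378 CPM in WT and 17472 ± 1996 CPM in Aromhum mice. Of 17 tested basal lamina and collagen genes, 4 were higher, *Nid1*, *Col5a1*, *Col5a2* and *Col15a1*, against 1.82% of all genes tested. All 4 also had a higher level in column group 8 than in members, with *Nid1* at 902 against 225 CPM. *Nid1*, the linker of laminin and collagen IV in basal laminae, stood at 134, 117 and 127 CPM in WT and 285, 307 and 380 CPM in Aromhum members.

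Most lower genes had a higher level in endothelial cells than in members. Of the 14 lower genes, 10 (71.4%) had their highest level among column groups 2, 7, 8 and 10 in column group 2, as did 26.5% of all genes tested. Among them were *C1qtnf9*, *Timp4*, *Gpihbp1*, *Esam*, *Egfl7*, *Alyref*, *AC160336.1*, *Hes1* and *Rflnb*. *Gpihbp1*, which holds lipoprotein lipase on capillaries, stood at 71.7, 113 and 65.1 CPM in WT and 23.02, 6.27 and 22.2 CPM in Aromhum members (edgeR adjusted p = 0.0129). In muscle fibre column group 22 it stood at 100 ± 47.0 and 25.3 ± 9.55 CPM. The 8 endothelial markers summed to 880 to 1738 CPM in WT and 103 to 886 CPM in Aromhum members, with only *Egfl7* called, against 0.227% of all genes tested. All 7 tested had a negative log2 fold change, with a median of -1.38, and the genotypes did not overlap in 4. Over all genes tested, 6.88% did not overlap with Aromhum lower, and 17.7% in either direction. Their part in the lower genes was not tested. *Hes1*, a Notch target, stood at 304, 277 and 279 CPM in WT and 190, 182 and 172 CPM in Aromhum members. *Hes1* and *Rflnb* were the 2 lower genes that also had a higher level in fibroblasts than in members, though under that in column group 2.

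The number of genes called moved by over 1.5 times when some small sets of members, or any mouse but Aromhum replicate 3, were left out. Without the 30 members that Scrublet marked as doublets 17 genes were higher and 3 lower, and without the 46 members in which the fibroblast list took over 2% of UMIs 29 were higher and 7 lower. All 107 and all 72 of the called genes that could still be fitted kept their direction. For the 95 higher genes fitted without doublets the median log2 fold change was 2.08, against 1.97 with all members. For the 58 fitted without fibroblast-rich members it was 1.34, against 1.81. That limit used the fibroblast list, of which 5 of 8 genes were called as higher, so a drop in such genes was partly built in. It removed 8, 5 and 6 members in WT and 10, 8 and 9 in Aromhum mice. Genes still called under both included *Smoc2*, *Ptx3*, *C3*, *Tyrp1*, *Pnoc*, *CYP19A1*, *Cd44*, *Col6a1*, *Tnxb* and *Smco3*. Of these, *Smoc2*, *Col6a1* and *Tnxb* were named after their values were seen. *CYP19A1* had no UMI in any WT barcode, and *Smco3* and *Tyrp1* had none in any Aromhum barcode. Leaving out members could not change this, so these settings were no test of those genes. Within the mitochondrial limit edgeR called 0 of 1645 genes (163 at an unadjusted p under 0.05), and within the 3 limits of the study 0 of 900 (42 at an unadjusted p under 0.05). Without WT replicate 1, 2 or 3 the higher and lower genes numbered 211 and 24, 17 and 2, and 37 and 9. Without Aromhum replicate 1 or 2 they numbered 58 and 7, and 48 and 6, and without Aromhum replicate 3 they numbered 134 and 18.

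**Figure D5:**
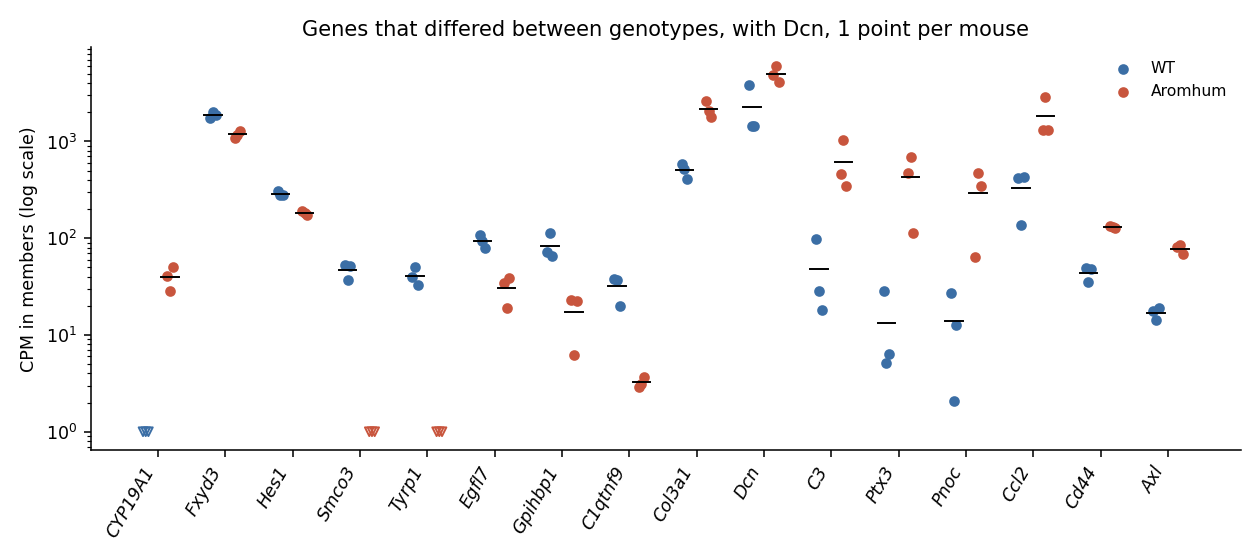
CPM of 15 called genes and of *Dcn* in the members of each mouse, on a log scale, with bars for the mean of 3 mice. Open triangles stand for genes listed at 0, and for the 15 called genes shown the WT and Aromhum points do not overlap. The rule for naming genes by fold change required this of all but *Col3a1*, *Ccl2*, *Cd44* and *Axl*, which were not named by that rule.

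The human transgene was higher in Schwann cells than in most cells. *CYP19A1* stood at 40.3, 28.2 and 50.03 CPM in Aromhum members, from 14, 9 and 27 UMIs, which was second only to column group 4 (50.3 ± 8.43 CPM) in the means of 30 column groups. Their ranges overlapped, at 40.7, 54.2 and 56.2 CPM in column group 4, and column group 15 followed at 32.3 ± 6.26 CPM. The fibroblasts of column groups 8 and 10 stood at 8.62 ± 1.87 and 7.44 ± 0.682 CPM, and endothelial column group 2 at 2.15 ± 0.707 CPM. It had no UMI in WT members. Since the table holds few genes seen in under 15 barcodes of a mouse (59 in WT replicate 2 and 1 to 5 in each other mouse), removal of a few UMIs cannot be told apart from none, and no fold is given. After thinning, 3.77% ± 1.18 of Aromhum members had a UMI of it, against 0.25% in column group 2 (11.2% and 1.25% before thinning).

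Of 11 tested genes of steroid action, 3 were called, all as higher, among them *CYP19A1* and *Hsd11b1*, against 1.82% of all genes tested. *Hsd11b1*, which activates glucocorticoids, stood at 22.3, 7.19 and 8.14 CPM in WT and 112, 75.2 and 25.9 CPM in Aromhum members (edgeR adjusted p = 0.0417), and also had a higher level in fibroblasts than in members. *Esr1*, the estrogen receptor, was too low to be tested, at 4.78, 0 and 2.71 CPM in WT and 8.63, 34.5 and 3.71 CPM in Aromhum members, against 227 CPM in column group 10. *Pgr* and *Greb1*, targets of estrogen, were also under the filter on low counts, with 14 and 20 UMIs over all members. They stood at 43.9 and 40.8 CPM in Aromhum replicate 2, the mouse with the most *Esr1*. There *Esr1* had a UMI in 3.67% of members of at least 1000 UMIs, and in 0% after thinning. These levels rest on few UMIs of that mouse, and a link between the genes was not tested. In every other mouse *Pgr* was at 0 and *Greb1* at 11.5 CPM or less. In column group 10 the 2 genes stood at 80.2 and 131 CPM. The glucocorticoid receptor *Nr3c1* stood at 134 ± 6.71 CPM in WT and 119 ± 9.50 CPM in Aromhum members.

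Of 22 tested genes for signals from the axon and the matrix, *Axl* and *Tgfbr2* were higher and none was lower, against 1.82% and 0.227% of all genes tested. *Axl*, a receptor of *Gas6*, stood at 16.97 ± 2.36 CPM in WT and at 80.6, 84.6 and 68.6 CPM in Aromhum members (edgeR adjusted p = 0.00268). *Tgfbr2*, the TGF-β receptor, stood at 52.8 ± 11.0 and 132 ± 32.3 CPM. Both are among the genes with a higher level in fibroblasts. *Erbb3*, *Dag1* and *Dhh* were not called, with log2 fold changes of -0.03, -0.04 and -0.19.

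Of 11 tested genes of repair Schwann cells, the chemokines *Cxcl1*, *Ccl2* and *Ccl7* were higher, against 1.82% of all genes tested. Of the tested genes with a higher level in fibroblasts than in members, 4.01% were called in either direction. All 3 chemokines had a higher level in fibroblast column group 8 than in members, with *Cxcl1* at 3694 against 754 CPM, *Ccl2* at 4459 against 1086 CPM and *Ccl7* at 2514 against 375 CPM. *Ccl2* stood at 419, 138 and 425 CPM in WT and 1327, 2900 and 1305 CPM in Aromhum members (edgeR adjusted p = 0.0121). *Jun*, the factor that drives the repair state, stood at 1282 ± 281 and 1373 ± 357 CPM and was not called. *Sox2*, an inhibitor of myelination, stood at 98.1 ± 5.11 and 67.1 ± 18.2 CPM, also not called. Of 30 immediate early and stress genes and 15 antigen presentation and interferon genes tested, none was called, against 2.04% of all genes tested. Their median log2 fold changes were -0.01 and 0.06. Among the 5 tested genes of non-myelinating Schwann cells only *Apod*, a lipocalin also made by fibroblasts, was higher (304 ± 61.6 against 674 ± 185 CPM), again beside 1.82% of all genes tested. *Fxyd3* was the only one called of 12 tested genes on a list of genes known from both glial types, although its own level differed between them as given above, and 0.227% of all genes tested were lower. All 12 had a negative log2 fold change, with a median of -0.30 against -0.00 over all genes tested. The genotypes did not overlap in 5 of the 12. Of all genes tested, 6.88% did not overlap with Aromhum lower, and 17.7% in either direction.

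The genotype differences were compared between column groups 7 and 4 as an interaction in edgeR with the mouse as a block. Of 7670 genes 0 were called (0.0%), with 578 at an unadjusted p under 0.05. The 5 genes with the smallest p were *Apoe*, *Spon1*, *Cpq*, *Postn* and *Cd44*, each at an adjusted p of 0.0657. *Apoe*, the lipid carrier of glia and macrophages, stood at 247, 170 and 98.6 CPM in WT and 935, 818 and 493 CPM in Aromhum members, and at means of 9010 and 7470 CPM in column group 4. The 8 macrophage markers, each with UMIs in the members of at least 1 mouse, summed to 1160 CPM in Aromhum replicate 1, where *Apoe* was highest. In the members of the other 5 mice they summed to 19 to 31.9 CPM. In column group 4 they summed to 4923 to 10202 CPM in WT and 2604 to 5437 CPM in Aromhum mice, and their part in the *Apoe* difference was not tested. *Cd44*, the hyaluronan receptor, stood at 49.4, 34.9 and 48.0 CPM in WT and 132, 132 and 128 CPM in Aromhum members, against means of 438 and 538 CPM in column group 4. Without WT replicate 1 edgeR called 38 genes, and with no filter on low counts 128.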

How the data were processed

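Per the study's methods, LAM was digested, captured with 10x Genomics 3′ chemistry, and aligned with Cell Ranger 3.0.2 to mm10 with human *CYP19A1* added. On each of 3 dates 1 WT mouse and 1 Aromhum littermate were processed, and the labels do not tie replicate numbers to dates. The authors deposited raw UMI counts per gene and barcode, without normalization. Only 1 to 59 genes per mouse have UMIs in under 15 barcodes, while 1071 to 1709 are at 0 in it, and any filter behind this is not given in the sources used here. Members, gene lists and named genes were chosen with earlier results of these data known.

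Members (at least 500 UMIs) were summed per mouse, and the sums were tested by quasi-likelihood in edgeR 4.0.16 (R 4.3.3) after TMM scaling and filterByExpr, calling genes at a Benjamini-Hochberg adjusted p under 0.05. The study's Wilcoxon test over cells was not used, since cells of a mouse are not replicates. Intervals of fold changes use the fit's total of 11 degrees of freedom, which includes those that edgeR borrows across genes. Shares were compared with 2-sided exact permutation tests, whose lowest p is 0.1. CPM was computed from the summed counts. Named are the listed genes, up to 15 called genes of highest and 15 of lowest fold change (at least 20 CPM, no overlap), the 20 leading genes by level, and the 5 smallest p of the interaction. Alternatives were RLE size factors, DESeq2 1.42.0, no low-count filter, a replicate block, other limits on cells, Scrublet (scanpy 1.11.5) and each mouse left out. Scrublet marked 0 of 7905 barcodes in WT replicate 3 and 1.23% to 2.78% elsewhere, so doublets in that mouse were treated as not called. Chosen after seeing the data were the limits on fibroblast and haemoglobin UMIs and a test of only genes with UMIs in all 6 mice. The scripts were tested on simulated data. Some genes that the rule names are not reported here.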

Additional observations from a re-analysis of the deposited data

How the results depend on the processing

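The counts of genes higher and lower in Aromhum members (112 and 14) stayed within 1.5 times with RLE size factors, DESeq2, a replicate block (158 and 20 genes), at least 1000 UMIs, at least 2 core markers, without haemoglobin-rich members and with only genes seen in all 6 mice. They moved to 353 and 99 with no filter on low counts, 0 and 0 within the 3 limits of the study and also within the mitochondrial limit (fewer members and genes), 17 and 3 without Scrublet doublets, and 29 and 7 without fibroblast-rich members. With each mouse left out in turn, they ranged from 17 to 211 and from 2 to 24, and the genes called in the interaction from 0 to 38, with 128 without the filter. In the replicate block 120 of the 126 calls remained. Same-numbered mice deviated together with r = 0.138, 0.00147 and 0.162 for replicates 1 to 3. Between differently numbered mice r ran from -0.198 to 0.0794. The values of replicates 1 and 3 lay above that range and that of replicate 2 within it. These values do not settle whether the numbers mark pairs, and the main tests did not use them as pairs. With the replicate block, the exact sign-flip permutation test gave p = 0.25 for both shares, the lowest it allows for 3 pairs. The share differences were -1.94 and -9.86 percentage points. Among both glial groups the difference turned to 3.16 percentage points within the mitochondrial limit. *Dcn*, not called, turned to -0.10 on the log2 scale within the 3 limits of the study. Of 729 values for 44 genes over 18 alternatives, 550 kept their side of the threshold and direction, 174 lost it and 4 gained it. The sums came from 126 to 359 members per mouse, which limited the precision of genes with low counts. The causes of these movements were not tested.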
